A study of Homo sapiens with 30 samples.

Results

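A group of 40 genes for DNA replication and nucleotide supply was followed in RNA sequencing of SW1783 cells, an established human astrocytoma line, after 24 h with herbal extracts. The 40 genes were given as a fixed list of symbols, and all 40 were found among the 60675 gene identifiers of the deposited table. They were sorted into 9 roles: the replicative helicase core (6 genes), origin licensing (4), helicase activation (6), primase and polymerase alpha (4), elongation and the sliding clamp (8), lagging strand joining (2), nucleotide supply (4), S-phase entry (3) and fork checkpoint or replication-coupled control (3). The list was chosen with earlier results of these data known. Counts of its genes beside the shares over all genes are therefore a description. The study measured total RNA from cells given aqueous ethanol extracts of 4 herbal formulas (Soshiho-tang, Yijin-tang, Soyo-san and Okbyeongpung-san), each at 500, 100 and 20 µg/mL, with DMSO as vehicle. The vehicle had 3 libraries, Soshiho-tang and Yijin-tang had 3 at each dose, Okbyeongpung-san had 2 at each dose and Soyo-san had 1 at each dose, for 30 libraries in all. The labels give 0.1% DMSO for the vehicle and the series text gives 2%, and they do not say that the replicates were separate cultures, so the p-values speak for the spread among these libraries, which may be technical. The water extracts and the wortmannin control named in the series text were not analysed here, and that text says that libraries of low RNA concentration were left out.

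DNA replication starts when the origin recognition complex, CDC6 and CDT1 load the MCM2 to MCM7 ring onto DNA, and cyclin E and other kinase activity then lets CDC45, the GINS complex and MCM10 turn that ring into an active helicase. Polymerase alpha with primase lays down primers, polymerases epsilon and delta extend them on the PCNA clamp that replication factor C loads, and FEN1 and LIG1 join the lagging strand. Ribonucleotide reductase, thymidylate synthase and thymidine kinase supply the deoxynucleotides, and many of these genes are known targets of E2F transcription factors, which are active from late G1 into S phase of proliferating cells such as tumour lines.

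Library totals ran from 23.87 M to 33.06 M estimated read counts (M, mega), with a median of 27.39 M. The glial markers SOX9 (52.6 to 93.0 CPM, counts scaled to the library total), VIM (3760 to 5590) and CD44 (2170 to 3030) were present in every library, while the astrocyte markers GFAP (at most 0.205), S100B (at most 0.252), AQP4 (at most 0.0701) and ALDH1L1 (at most 0.0965) were near 0. Of 12 markers of other cell types, the epithelial EPCAM, CDH1 and KRT5, the endothelial CDH5 and VWF, the T cell marker CD3E and the neuronal RBFOX3 each stayed at or below 0.387 CPM, and the endothelial PECAM1 at or below 0.903. The other 2 neuronal markers, SNAP25 (15.6 to 30.4) and SYT1 (19.5 to 31.2), and the other 2 leukocyte markers, CD68 (122 to 246) and PTPRC (4.16 to 13.0), were present in every library. Mitochondrial transcripts held 10.47 to 10.7% of counts in the vehicle. With Soshiho-tang they held 6.93 to 7.79% at 500 µg/mL and 6.37 to 9.03% at 20, and with Okbyeongpung-san 5.68 and 6.8% at 500 and 8.11 to 8.36% at 20. Yijin-tang replicate 3 at 500 µg/mL (10.61%) stood apart from the other 2 libraries of its group (6.7 and 7.35%). The part of these shares in the results below was not tested.

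All 40 genes passed the filter on low counts in each fit. Per kilobase of annotated exon, averaged over the 30 libraries, PCNA, the sliding clamp, had the highest level (75.4 CPM per kb), followed by MCM7 (43.4), RRM1 (40.6), RRM2 (38.7) and MCM3 (33.1). The lowest were GINS3 (2.72), LIG1 (3.75), POLE (4.21), POLE2 (4.55), CCNE2 (4.79), ORC1 (4.84) and MCM10 (4.90). Levels below are CPM with TMM scaling, not divided by length, and a difference is a log2 fold change with its standard error. A gene is called lower or higher when edgeR's quasi-likelihood test gave a Benjamini-Hochberg adjusted p under 0.05 over all genes tested. These are bulk samples, so fewer cells in S phase and less RNA per cell cannot be told apart.

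The sequence before the RefSeq start site was read for 36 of the 40 genes that matched a RefSeq promoter table (GRCh38.p14). In GENCODE v29 some of these genes start further upstream. All 150 bases nearest the RefSeq start site lie in GENCODE exons for MCM2, CDC6 and CDC45, for example. Searched on both strands of the 250 bases upstream, at least 1 of the E2F-type strings TTTCGCGC, TTTCCCGC, TTTGGCGC and TTTGCCGC was present in 15 of 36 (41.7%), against 2.8% of all 27305 promoters of that length and 3.7% of 15842 of protein-coding genes. These strings can overlap one another. The string CCAAT was present in 21 of 36 (58.3%), against 33% and 34.5%. A match describes the letters only and is no measurement of binding. The next 4 windows of 150 bases are shown because they hold the E2F-type letters, written in capitals, in genes whose levels are described below: POLA1 (chrX:24693768-24693917, plus strand), PCNA (chr20:5126623-5126772, minus), POLE (chr12:132687343-132687492, minus) and MCM6 (chr2:135876444-135876593, minus). In MCM6 the first run of capitals begins 2 bases before the window.
POLA1: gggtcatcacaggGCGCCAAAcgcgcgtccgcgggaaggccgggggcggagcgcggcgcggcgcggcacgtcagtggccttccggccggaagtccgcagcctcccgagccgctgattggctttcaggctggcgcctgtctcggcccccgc
PCNA: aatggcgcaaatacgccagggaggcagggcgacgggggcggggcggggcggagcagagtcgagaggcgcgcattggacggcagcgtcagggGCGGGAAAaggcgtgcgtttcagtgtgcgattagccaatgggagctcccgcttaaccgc
POLE: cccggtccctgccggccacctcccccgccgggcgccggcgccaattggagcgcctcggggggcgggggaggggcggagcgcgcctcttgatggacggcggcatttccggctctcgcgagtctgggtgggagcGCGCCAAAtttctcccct
MCM6: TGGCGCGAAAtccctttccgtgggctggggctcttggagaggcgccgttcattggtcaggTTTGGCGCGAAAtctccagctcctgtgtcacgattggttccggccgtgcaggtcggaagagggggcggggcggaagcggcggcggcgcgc
For TYMS (chr18:657603-657632, plus strand), UHRF1 (chr19:4909471-4909500, plus) and DTL (chr1:212035718-212035747, plus), 30 bases around the match are shown. Apart from the first TYMS base, these stretches lie within the GENCODE v29 bounds of their genes.
TYMS: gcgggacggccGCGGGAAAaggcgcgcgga
UHRF1: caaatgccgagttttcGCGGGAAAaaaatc
DTL: caatcagagagcgtgacgtcagTTTGGCGC
MCM10 (chr10:13161408-13161557, plus strand) and RRM1 (chr11:4094535-4094684, plus) are shown as genes that were called lower with Soshiho-tang although their 250 bases do not hold these letters.
MCM10: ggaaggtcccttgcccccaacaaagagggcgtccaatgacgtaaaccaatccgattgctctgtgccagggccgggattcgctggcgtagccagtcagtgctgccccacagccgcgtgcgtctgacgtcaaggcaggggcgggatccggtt
RRM1: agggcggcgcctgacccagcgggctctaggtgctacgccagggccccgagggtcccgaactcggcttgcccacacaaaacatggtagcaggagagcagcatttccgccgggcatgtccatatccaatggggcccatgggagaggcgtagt

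Over the 40 genes together, the summed level was lower at the highest dose of Soshiho-tang and Okbyeongpung-san and not of Yijin-tang or Soyo-san, a description with no test. With Soshiho-tang the sum was 2420 ± 55.7 CPM (SD, n = 3) at 20 µg/mL, 2440 ± 26.9 at 100 and 2160 ± 44.2 at 500. With Okbyeongpung-san it was 2260 ± 12.6 (n = 2), 2240 ± 15.7 and 1940 ± 0.988 at the same doses. With Yijin-tang it was 2350 ± 63.9 (n = 3), 2410 ± 53.4 and 2490 ± 55.4, and the vehicle stood at 2340 ± 42.0. The single Soyo-san libraries stood at 2330, 2340 and 2360.

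**Figure D1:**
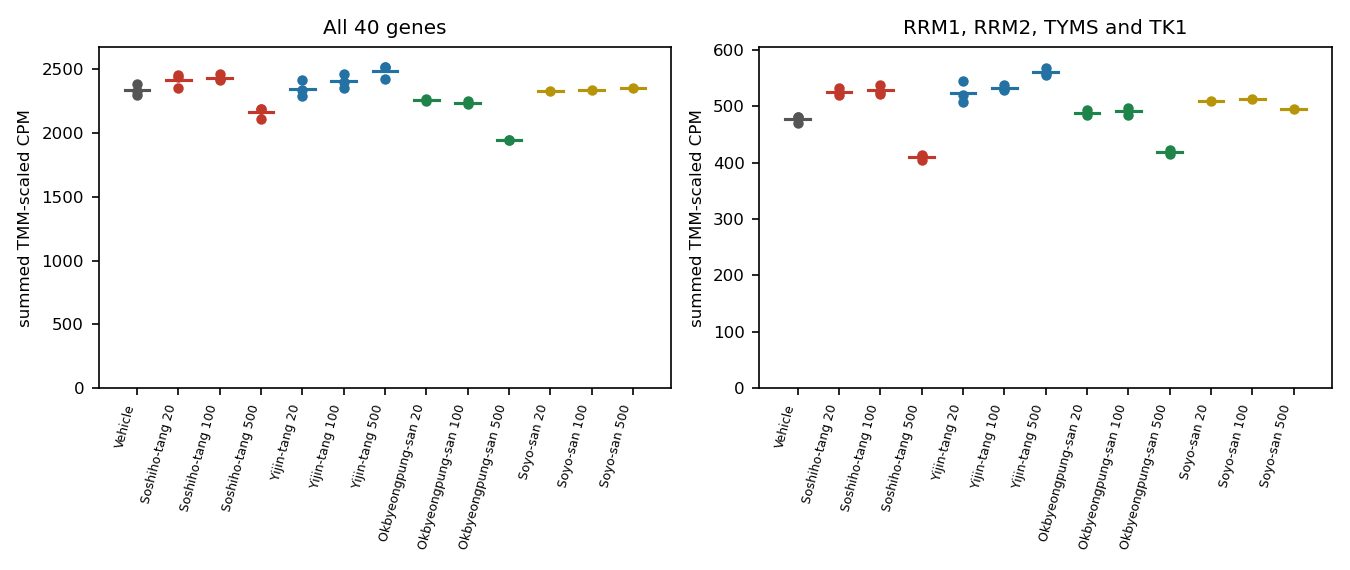
Summed CPM (y axes, linear, from 0) of the 40 replication genes and of the 4 nucleotide supply genes in each library, by extract and dose (x axis); points are libraries and horizontal bars are group means. The 40-gene sums at 500 µg/mL lie lower for Soshiho-tang (2110 to 2190 CPM) and Okbyeongpung-san (1940 in both libraries) than at 20 µg/mL of the same extract.

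**Figure D2:**
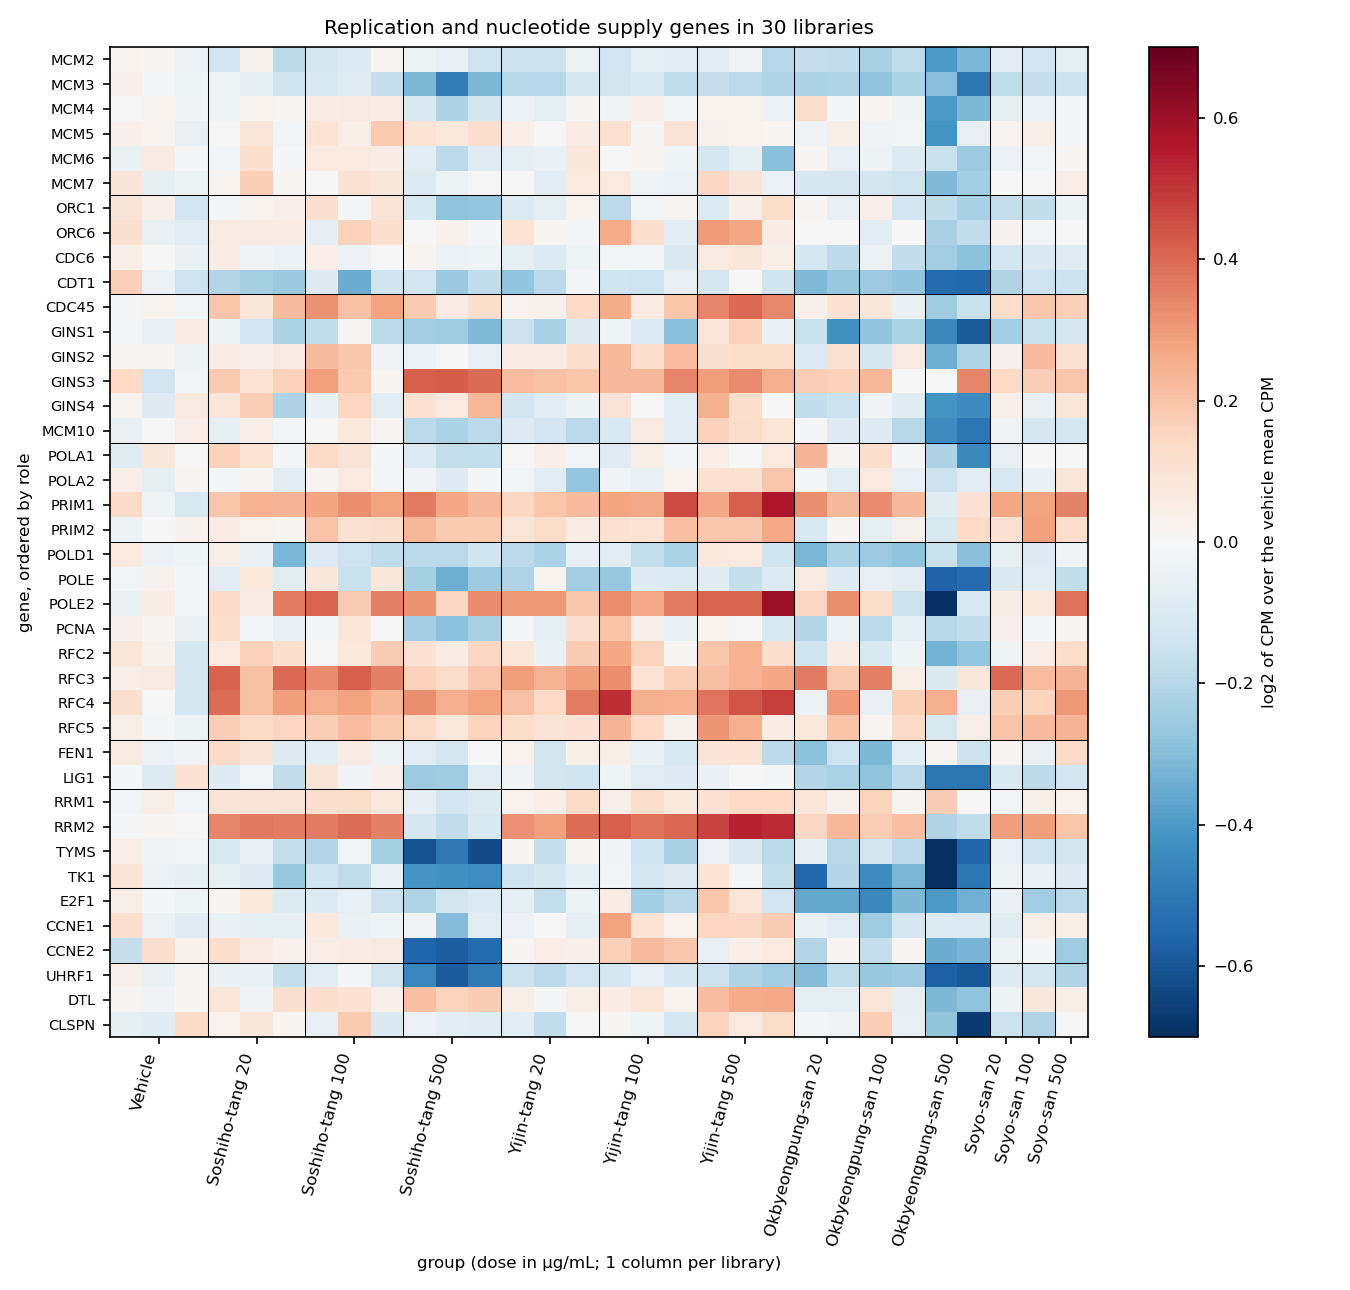
Log2 ratio of CPM to the vehicle mean (colour scale) for the 40 genes (rows, by role) in the 30 libraries (columns, by group). At 500 µg/mL, TYMS and UHRF1 are blue in every library of Soshiho-tang and Okbyeongpung-san, while GINS3 and DTL are red in the 3 Soshiho-tang libraries.

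The first question was what the highest dose of Soshiho-tang did relative to its lowest dose, within 1 set of libraries. At 500 µg/mL, 14 of the 40 genes were lower than at 20 µg/mL, where 14.2% of all 16872 genes tested were lower, and 3 were higher, where 14.6% were higher. The median log2 fold change of the 40 was -0.10, against 0.01 over all genes, and 23 of the 40 had no overlap between the 3 libraries of each dose, as had 43.2% of all genes. All 4 nucleotide supply genes were lower (median -0.37), as were 2 of 6 helicase core genes, 3 of 8 elongation genes and 1 gene in each of origin licensing, helicase activation, primase and polymerase alpha, S-phase entry and fork control. The 3 higher genes, GINS3, PRIM2 and DTL, came from 3 different roles, and neither lagging strand gene was called. Markers of other cell types moved as well: the summed level of the 3 neuronal markers was 40 to 42 CPM at 500 µg/mL and 50.8 to 56.3 at 20, with SNAP25 called lower, and that of the 3 leukocyte markers 198 to 229 and 135 to 192, with PTPRC called lower and CD68 higher, while CD3E was at 0 in all 6 libraries. Of the 4 glial markers tested, VIM, CD44 and SOX9 were lower and NES higher. The part of these in the result was not tested.

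CCNE2, the cyclin E2 subunit that activates CDK2 at S-phase entry, changed most. It stood at 14.8, 14.6 and 15.0 CPM in the 3 libraries at 500 µg/mL, 22.5, 22.6 and 22.7 at 100 and 23.7, 22.7 and 22.2 at 20. The 500 µg/mL libraries lay below every other Soshiho-tang library, and the log2 fold change to 20 was -0.62 ± 0.06 (adjusted p = 4.51e-08), to 0.649 of the 20 µg/mL level. INTS8, a gene on the opposite strand, covers 37.0% of the CCNE2 exon bases and was lower as well (-0.22, adjusted p = 0.00258). Over the 30 libraries INTS8 averaged 59.7 CPM and CCNE2 21.1. The kit keeps strand, and the strand setting of the counting is not given in the sources used here. E2F1, the transcription factor of the same role, stood at 35.8, 37.9 and 38.8 CPM at 500 and 41.8, 43.6 and 38.8 at 20, with overlapping groups and a difference of -0.14 ± 0.08 (adjusted p = 0.198).

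In origin licensing, ORC1, the large subunit of the origin recognition complex, stood at 14.7, 13.0 and 13.1 CPM at 500 µg/mL and 15.7, 16.1 and 16.2 at 20. Its groups did not overlap and the difference was -0.23 ± 0.07 (adjusted p = 0.022). CDC6, the loading ATPase with the highest level of this role (14.2 CPM per kb), stood at 82.6, 79.1 and 79.7 at 500 and 84.7, 80.1 and 79.3 at 20. The CDC6 groups overlapped, and the difference was -0.01 ± 0.04 (adjusted p = 0.902). In the helicase core, MCM3 stood at 110, 97.7 and 110 CPM at 500 and at 134, 131 and 124 at 20, a difference of -0.29 ± 0.05 (adjusted p = 5.72e-05) with no overlap. MCM7, the core subunit with the highest level per kb, stood at 180, 187 and 193 CPM at 500 and at 196, 217 and 194 at 20. The MCM7 groups were separate by a narrow margin, and the difference was not called (-0.11 ± 0.06, adjusted p = 0.177). MCM4 was called lower by a smaller amount (-0.14 ± 0.04, adjusted p = 0.0123), MCM6 missed the threshold (-0.14 ± 0.06, adjusted p = 0.0677), and MCM2 and MCM5 differed by 0.02 and 0.08.

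Helicase activation went both ways. GINS3, a subunit of the 4-part GINS complex, stood at 16.1, 16.2 and 15.9 CPM at 500 µg/mL and 13.7, 12.9 and 13.5 at 20. All 3 libraries at 500 were above those at 20, a rise of 0.27 ± 0.07 (adjusted p = 0.00509). MCM10, which helps start the helicase, stood at 24.6, 24.0 and 24.7 CPM at 500 and at 26.7, 28.9 and 27.7 at 20, a fall of 0.18 ± 0.05 (adjusted p = 0.0117). CDC45, the other helicase partner, overlapped between 500 (25.7, 23.5 and 24.6 CPM) and 20 (25.9, 23.9 and 26.4; adjusted p = 0.676). POLA1, the catalytic subunit of polymerase alpha, stood at 56.9, 54.2 and 54.2 CPM at 500 and at 67.9, 65.0 and 60.5 at 20. Its groups did not overlap and it was lower by -0.22 ± 0.05 (adjusted p = 0.00296), while PRIM2, the large primase subunit that works beside it, was higher (27.7, 26.8 and 26.8 CPM against 24.5, 24.0 and 23.7; 0.18 ± 0.05, adjusted p = 0.00697).

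PCNA, the clamp, stood at 96.7, 93.6 and 97.5 CPM at 500 µg/mL and 124, 113 and 110 at 20, with no overlap and a difference of -0.26 ± 0.06 (adjusted p = 0.00264). POLE, the catalytic subunit of the leading strand polymerase, stood at 64.6, 59.8 and 63.6 CPM against 71.6, 79.6 and 71.9 (-0.24 ± 0.07, adjusted p = 0.0135). RFC3, a clamp loader subunit, was lower by the smallest margin among the elongation genes called (27.8, 27.2 and 28.4 against 33.1, 28.7 and 32.7 CPM; -0.17 ± 0.06, adjusted p = 0.0421). The 3 genes each kept all libraries at 500 below all at 20. FEN1, the flap nuclease of the lagging strand, overlapped (56.4, 55.0 and 59.5 against 65.5, 63.4 and 56.0 CPM; adjusted p = 0.291).

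The nucleotide supply genes fell together. RRM2, the S-phase subunit of ribonucleotide reductase, stood at 161, 155 and 162 CPM at 500 µg/mL, at 225, 229 and 223 at 100 and at 221, 226 and 225 at 20. The 500 µg/mL libraries were separate from all others of this extract, and the difference to 20 was -0.48 ± 0.04 (adjusted p = 2.67e-09), to 0.715 of the lower dose. RRM1, the large subunit of the same enzyme, stood at 156, 149 and 153 CPM at 500 and at 174 in each library at 20 (-0.18 ± 0.04, adjusted p = 0.00122). TYMS, thymidylate synthase, stood at 52.3, 56.5 and 51.7 CPM at 500, 69.3, 78.9 and 67.9 at 100 and 73.9, 76.7 and 71.1 at 20. Again the 500 µg/mL libraries lay below all others, with a difference of -0.46 ± 0.07 (adjusted p = 1.07e-05). TK1, the thymidine kinase of the salvage route, stood at 44.9, 44.5 and 44.1 CPM against 57.2, 56.1 and 49.6 (-0.28 ± 0.06, adjusted p = 0.00202). ENOSF1, on the opposite strand, covers 39.1% of the TYMS exon bases. It averaged 2.25 CPM over the 30 libraries and was lower too (-0.59, adjusted p = 0.00773). For RRM2, 20.2% of exon bases are shared with another annotated gene, which has no row in the deposited table.

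Among the genes of fork control, UHRF1, which brings maintenance methylation to newly copied DNA, stood at 57.4, 52.7 and 56.0 CPM at 500 µg/mL and at 76.3, 76.5 and 70.2 at 20 (-0.42 ± 0.05, adjusted p = 4.35e-07, no overlap). DTL, the substrate receptor that sends CDT1 for destruction on PCNA, was higher (63.8, 61.4 and 62.4 against 58.5, 54.2 and 59.5 CPM; 0.13 ± 0.04, adjusted p = 0.0238). CLSPN, the claspin adaptor of the checkpoint kinase CHEK1, was not called (-0.10 ± 0.07, adjusted p = 0.304). Of the 17 calls, 11 were kept whichever library of the 2 doses was left out. DTL was lost without replicate 1 or 3 at 500 or replicate 2 at 20, MCM10 without replicate 2 at 20, MCM4 without replicate 2 at 500, POLE without replicate 2 at either dose, ORC1 without replicate 2 or 3 at either dose, and RFC3 in 5 of 6 such fits. Without the filter on low counts, 1 gene in place of 3 was called higher.

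**Figure D3:**
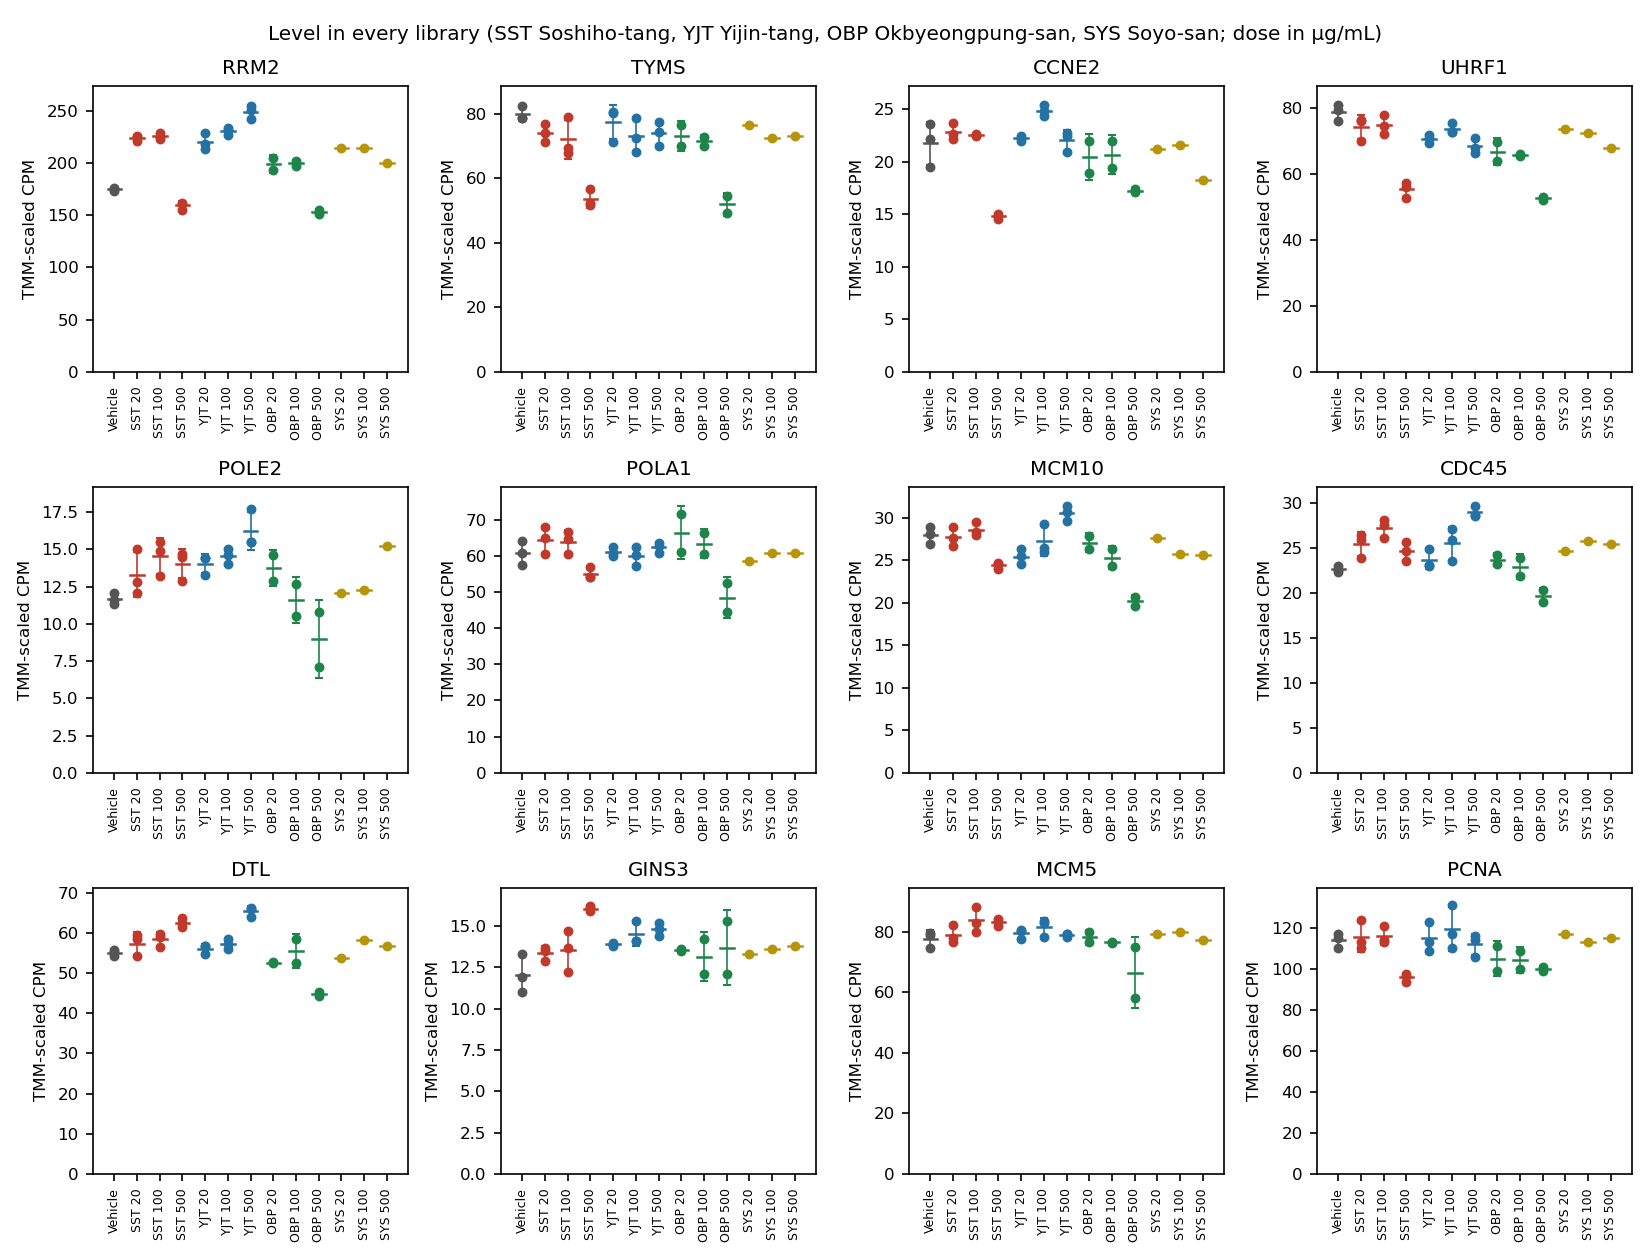
CPM (y axes, linear, from 0) of 12 replication genes in each library, by extract and dose (x axis; SST Soshiho-tang, YJT Yijin-tang, OBP Okbyeongpung-san, SYS Soyo-san); points are libraries, horizontal bars are group means and vertical bars are the SD. RRM2, TYMS, CCNE2 and UHRF1 are low in all 3 Soshiho-tang libraries at 500 µg/mL, whereas GINS3 is high there.

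With Yijin-tang the genes called were few and all rose. At 500 against 20 µg/mL, 5 of 40 were higher, where 2.7% of all genes were higher, and 0 were lower, where 2.94% were lower. The median was 0.09 against 0.00 over all genes. At an unadjusted p under 0.05 edgeR gave 15 higher and 1 lower, and DESeq2 called 5 higher and 0 lower. Over all genes, 3112 of 16872 passed that unadjusted edgeR cut, in either direction. The 5 were CDC45 and MCM10 of helicase activation, POLA2, the regulatory subunit of polymerase alpha, RRM2 and DTL. PTPRC and SYT1 were called lower, with summed leukocyte markers of 174 to 254 CPM at 500 µg/mL and 165 to 196 at 20 and summed neuronal markers of 48.5 to 53.0 and 53.8 to 56.4. Of the 4 glial markers tested, VIM and SOX9 were called lower and 0 higher. The part of these markers was not tested.

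CDC45 stood at 28.6, 29.7 and 28.5 CPM at 500 µg/mL, 27.1, 23.5 and 25.9 at 100 and 23.0, 23.1 and 24.9 at 20. The 3 libraries at 500 were above all others of this extract, and the difference to 20 was 0.29 ± 0.06 (adjusted p = 0.00385). MCM10 stood at 31.4, 30.7 and 29.7 CPM at 500 and at 26.3, 25.5 and 24.6 at 20 (0.27 ± 0.05, adjusted p = 0.00325), again without overlap. POLA2 stood at 46.3, 46.3 and 49.3 CPM against 42.5, 40.7 and 35.7 (0.25 ± 0.05, adjusted p = 0.00713). Of its exon bases, 35.1% are shared with another annotated gene, which has no row in the deposited table. RRM2 rose from 218, 213 and 229 CPM at 20 to 242, 254 and 251 at 500 (0.18 ± 0.04, adjusted p = 0.00625), where Soshiho-tang had lowered it. DTL stood at 64.1, 66.1 and 66.3 CPM at 500 and at 56.8, 54.8 and 56.8 at 20 (0.22 ± 0.04, adjusted p = 0.00268).

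The genes with the largest falls under Soshiho-tang overlapped between the 2 doses of Yijin-tang. CCNE2 stood at 20.9, 22.5 and 22.8 CPM at 500 µg/mL and 22.0, 22.5 and 22.3 at 20 (-0.02 ± 0.06, adjusted p = 0.926). TYMS stood at 77.5, 74.4 and 70.1 against 80.5, 71.3 and 80.3 (-0.06 ± 0.06, adjusted p = 0.664), and UHRF1 at 71.0, 68.1 and 66.6 against 71.0, 69.5 and 72.0 (-0.05 ± 0.05, adjusted p = 0.656). The same 5 calls were kept whichever library of the 2 doses was left out, replicate 3 at 500 µg/mL included. The count of higher genes was 8 without the filter on low counts and 2 when only the 2 groups compared were fitted.

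With Okbyeongpung-san, 9 of the 40 genes were lower at 500 than at 20 µg/mL, where 5.1% of 16643 genes were lower, and 0 were higher, where 5.21% were higher. The median was -0.24 against 0.00 over all genes, 35 of 40 changes were below 0, and 31 had no overlap between the 2 libraries of each dose, as had 49.8% of all genes. At an unadjusted p under 0.05 edgeR gave 23 lower and 0 higher, and DESeq2 called 9 and 0. Over all genes, 4310 of 16643 passed that unadjusted edgeR cut, in either direction. The first library of each dose comes from batch E and the second from batch D, and 32 of the 40 genes were below their 20 µg/mL level in both batches, with medians of -0.23 in batch E and -0.20 in batch D. With 1 library per dose in each batch, these within-batch values carry no test, and they were not counted over all genes. The summed neuronal markers were 51.0 to 52.7 CPM at 500 µg/mL and 58.6 to 60.8 at 20, with none called. The summed leukocyte markers were 153 to 242 and 166 to 188, with PTPRC called lower and CD3E at 0 in all 4 libraries. Of the 4 glial markers tested, SOX9 was called lower and NES higher. The part of these markers was not tested.

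POLE2, the second subunit of polymerase epsilon, stood at 7.10 and 10.8 CPM at 500 µg/mL and 12.9 and 14.6 at 20, a change of -0.63 ± 0.17 (adjusted p = 0.0477). Its partner POLE stood at 51.2 and 52.1 against 79.1 and 71.1 CPM (-0.55 ± 0.07, adjusted p = 0.00184). Both subunits were lower in both batches, and the spread at 500 was wider for POLE2. TYMS stood at 49.3 and 54.4 CPM at 500, 72.9 and 70.0 at 100 and 76.5 and 69.9 at 20 (-0.50 ± 0.08, adjusted p = 0.00396). RRM2 stood at 151 and 155 CPM at 500, 197 and 202 at 100 and 193 and 205 at 20 (-0.38 ± 0.07, adjusted p = 0.00733). For TYMS and RRM2 alike, the step lay between 100 and 500 µg/mL.

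The other nucleotide supply genes were not called in this comparison. RRM1 stood at 185 and 163 CPM at 500 µg/mL and 173 and 167 at 20 (0.03 ± 0.08, adjusted p = 0.859), and TK1 at 36.0 and 41.8 against 40.8 and 51.8 (-0.26 ± 0.12, adjusted p = 0.218). Both sets overlapped. MCM10 stood at 20.7 and 19.7 CPM against 27.9 and 26.3 (-0.43 ± 0.08, adjusted p = 0.00911), and GINS4, another GINS subunit, at 30.8 and 30.2 against 36.6 and 37.1 (-0.28 ± 0.08, adjusted p = 0.0449). MCM4 stood at 117 and 124 CPM against 168 and 153 (-0.41 ± 0.07, adjusted p = 0.00774), and POLA1 at 52.4 and 44.5 against 71.6 and 61.2 (-0.46 ± 0.11, adjusted p = 0.0237). UHRF1 stood at 53.0 and 52.3 CPM against 63.9 and 69.7 (-0.35 ± 0.07, adjusted p = 0.0154). In these 5 genes both libraries at 500 were below both at 20.

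Genes that did not pass were MCM7 (155 and 163 against 177 and 177 CPM, adjusted p = 0.227), MCM3 (111 and 95.8 against 117 and 118, adjusted p = 0.189), CDC6 (68.9 and 66.8 against 74.9 and 71.9, adjusted p = 0.365), ORC1 (14.0 and 13.5 against 15.9 and 15.2, adjusted p = 0.292) and CDC45 (19.0 and 20.3 against 23.2 and 24.2, adjusted p = 0.063). They had lower values in both libraries at 500 µg/mL. PCNA (99.1 and 101 against 98.9 and 111, adjusted p = 0.633), FEN1 (60.4 and 53.8 against 48.9 and 54.0, adjusted p = 0.401), E2F1 (31.4 and 32.9 against 32.3 and 32.3, adjusted p = 0.945) and GINS3 (12.1 and 15.3 against 13.6 and 13.5, adjusted p = 0.977) overlapped. CCNE2 stood at 17.1 and 17.4 CPM at 500 and at 18.9 and 22.0 at 20 (-0.25 ± 0.12, adjusted p = 0.209). Of the 9 calls, 3 (POLE, RRM2 and TYMS) were kept whichever library was left out, and 4 genes were called without replicate 2 at 20 µg/mL. With the replicate number as a block, POLE2 (adjusted p = 0.0588) and GINS4 (adjusted p = 0.0615) missed the threshold. That number follows the batch for Okbyeongpung-san, but vehicle replicate 3, of batch E, shares a block with the batch D libraries. The count was 1 when only the compared groups were fitted and 18 with 27 libraries in 1 fit.

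**Figure D4:**
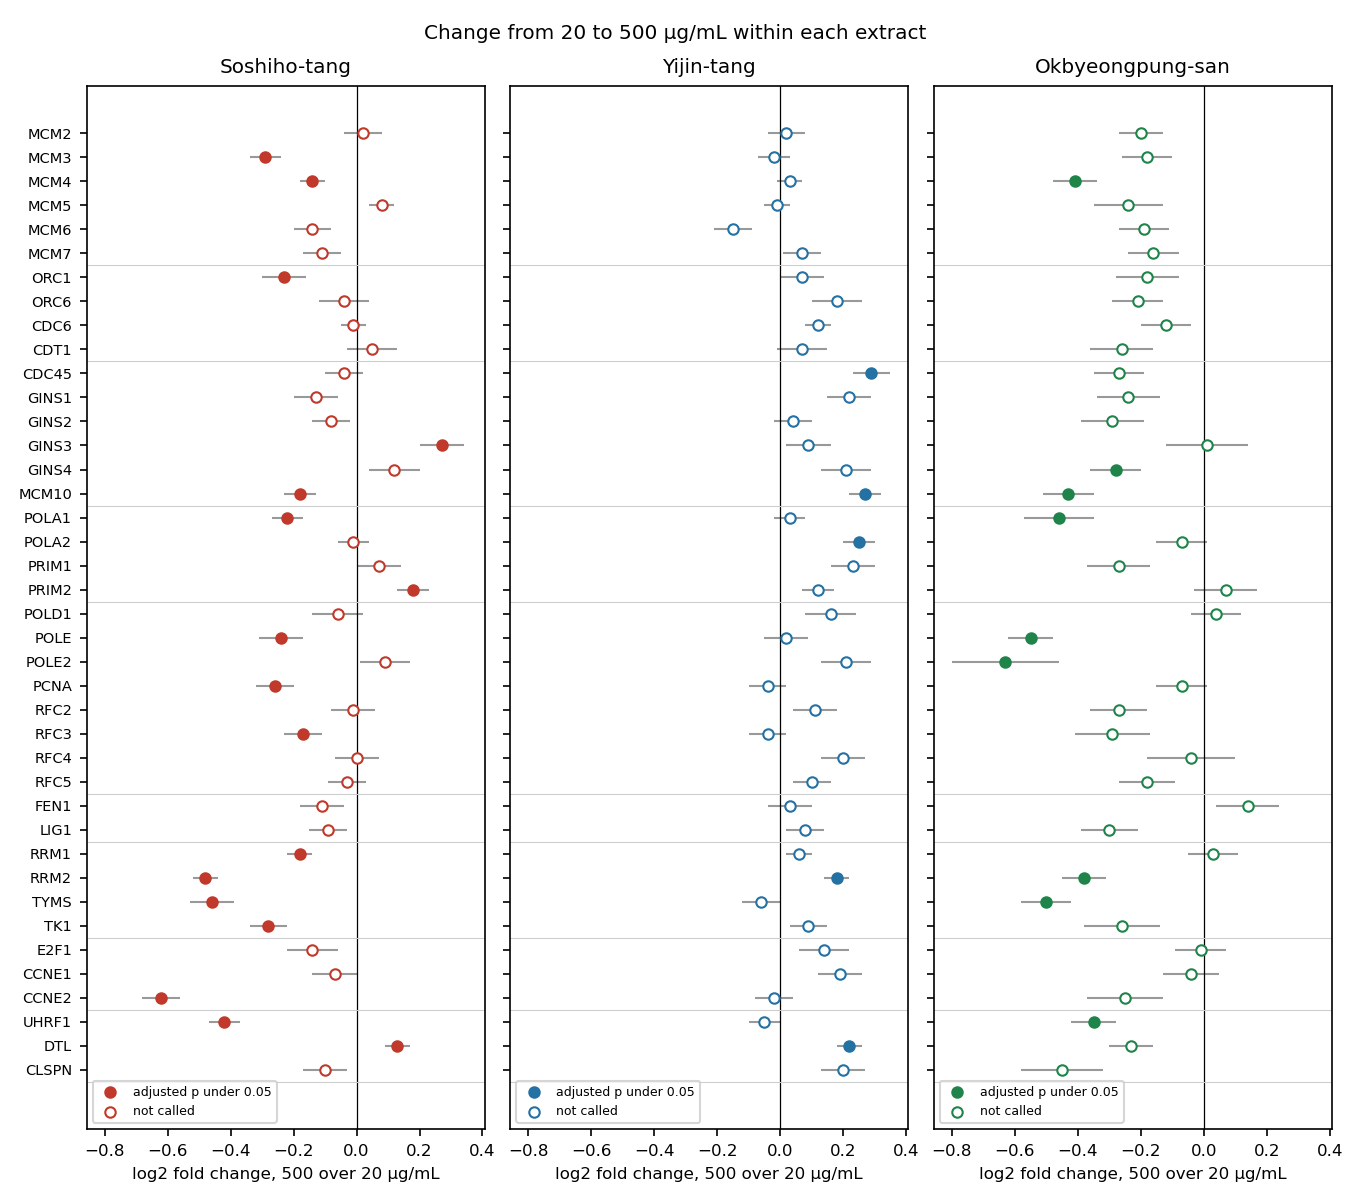
Log2 fold change of 500 over 20 µg/mL (x axis) with its standard error (bars) for the 40 genes (y axis, by role) in Soshiho-tang, Yijin-tang and Okbyeongpung-san; filled points have an adjusted p under 0.05. Filled points lie mostly left of 0 for Soshiho-tang (14 of 17) and Okbyeongpung-san (9 of 9) and right of 0 for Yijin-tang (5 of 5).

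The groups compared at 500 against 20 µg/mL of Soshiho-tang and of Okbyeongpung-san have no library in common. Both fits hold the same 3 vehicle libraries, which enter the filter, the scaling and the estimate of the spread. The calls are therefore not from wholly separate data. MCM4, MCM10, POLA1, POLE, RRM2, TYMS and UHRF1 were called lower in both, which is 7 of the 14 lower genes with Soshiho-tang and 7 of the 9 with Okbyeongpung-san. Genes called lower in both were not counted over all genes. Whether this overlap is larger than among other genes was therefore not tested. The difference between the 2 dose responses was tested in 1 fit of 27 libraries. It was lower for Okbyeongpung-san in 3 genes (3.17% of 17396 genes were lower) and higher in 1 (4.25% were higher). POLE2 differed by -0.71 ± 0.18 (adjusted p = 0.014), DTL by -0.36 ± 0.07 (adjusted p = 0.00309) and MCM4 by -0.27 ± 0.07 (adjusted p = 0.0211), while CCNE2 differed by 0.38 ± 0.11 (adjusted p = 0.0294), its change being -0.62 with Soshiho-tang and -0.25, not called, with Okbyeongpung-san. DTL stood at 44.3 and 45.4 CPM at 500 µg/mL of Okbyeongpung-san and 52.5 and 52.7 at 20. Only DTL of these 4 was called whichever library of the 4 groups was left out. POLE2 was lost without Okbyeongpung-san replicate 2 at 500 or replicate 3 at 20. MCM4 was lost without either Okbyeongpung-san replicate 2 or either Soshiho-tang replicate 1. CCNE2 was lost without those 4 libraries and also without Soshiho-tang replicate 2 or Okbyeongpung-san replicate 3 at 500, and 6 genes were lower without that last library. When only the groups compared were fitted, 0 genes were lower and 0 higher, against 15 lower and 2 higher at an unadjusted p under 0.05 in the 27-library fit by edgeR and 4 and 2 called by DESeq2. At that unadjusted edgeR cut, 3712 of all 17396 genes passed in the 27-library fit, in either direction.

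Soshiho-tang and Yijin-tang, which share a library set and have 3 libraries per dose, were then compared at matched doses. At 500 µg/mL, 16 of 40 genes were lower with Soshiho-tang (12.8% of all genes were) and 0 higher (12.5% were). The median difference was -0.16. RRM2 had the largest difference (159 ± 4.15 against 249 ± 6.22 CPM, SD, n = 3; -0.64 ± 0.04, adjusted p = 3.46e-11), followed by CCNE2 (14.8 ± 0.185 against 22.1 ± 1.01; -0.57 ± 0.06, adjusted p = 1.68e-07) and TYMS (53.5 ± 2.63 against 74.0 ± 3.71; -0.46 ± 0.07, adjusted p = 1.01e-05). All 4 nucleotide supply genes were lower (median -0.43), as were 3 of 6 helicase activation genes (CDC45, GINS1 and MCM10) and both cyclins E. For higher genes, edgeR at an unadjusted p under 0.05 and DESeq2 each gave 0. The count of lower genes ranged from 9, without Soshiho-tang replicate 2, to 17 when each library was left out in turn. In either direction, 24 of the 40 and 5924 of all 16872 genes had an unadjusted p under 0.05 by edgeR.

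At 100 µg/mL no gene of the 40 was called between the 2 extracts: 0 were lower (0.48% of all genes) and 0 higher (0.273%), with 1 lower and 2 higher at an unadjusted p under 0.05 by edgeR and 0 by DESeq2. At 20 µg/mL they were again 0 lower (0.107%) and 0 higher (0.0237%), with 0 lower and 1 higher at an unadjusted p under 0.05 and 0 by DESeq2. Of all 16872 genes, 1765 at 100 µg/mL and 1437 at 20 passed the unadjusted edgeR cut, in either direction. The difference between the dose responses themselves, 500 over 20 µg/mL of Soshiho-tang minus that of Yijin-tang, was below 0 in 14 genes (6.99% of all genes) and above 0 in 0 (6.63%), with 21 and 0 at an unadjusted p under 0.05 by edgeR and 14 and 0 by DESeq2. It was largest in RRM2 (-0.66 ± 0.05, adjusted p = 1.76e-08), CCNE2 (-0.61 ± 0.08, adjusted p = 2.03e-05) and MCM10 (-0.45 ± 0.07, adjusted p = 0.000177), and it covered all 4 nucleotide supply genes. Of these 14 genes, 9 were called whichever library was left out; CLSPN, MCM4, POLA1, POLA2 and GINS1 were each lost in several such fits. Without Soshiho-tang replicate 1 at 20 µg/mL the count was 9. Over every alternative fit, leave-out fits included, CLSPN was lost in 12 and MCM4 in 13. For this difference of dose responses, 4134 of 16872 genes passed the unadjusted edgeR cut, in either direction.

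At 100 against 20 µg/mL no gene of the 40 was called for any extract. With Soshiho-tang 0 were lower (0.0652% of all genes) and 0 higher (0.00593%), and 2 genes were higher at an unadjusted p under 0.05. With Yijin-tang 0 were lower (0.00593%) and 0 higher (0.0%), and again 2 were higher at an unadjusted p under 0.05. With Okbyeongpung-san 0 were lower (0.0%) and 0 higher (0.0%), and 0 passed without adjustment. These are edgeR counts, and DESeq2 called 0 in each. The medians were 0.02, 0.03 and -0.02, and the 40 changes ran from -0.10 to 0.13, -0.08 to 0.18 and -0.25 to 0.10. RRM2 changed by 0.01 ± 0.04 with Soshiho-tang, 0.07 ± 0.04 with Yijin-tang and 0.00 ± 0.07 with Okbyeongpung-san.

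The vehicle served as a further reference. Its libraries carry other library names than every extract library, so an effect of an extract and a difference between library sets cannot be told apart. These comparisons also share their 500 or 20 µg/mL libraries with those above, and all share the 3 vehicle libraries. With Soshiho-tang at 500 µg/mL, 14 genes were lower than vehicle (21.1% of all genes) and 7 higher (22.8%). TYMS (78.5 to 82.3 CPM in the vehicle; -0.57 ± 0.07, adjusted p = 4.14e-07), CCNE2 (19.5 to 23.6; -0.55 ± 0.06, adjusted p = 2.42e-07) and UHRF1 (76.3 to 80.9; -0.51 ± 0.05, adjusted p = 2.3e-08) had the largest changes, and in each the 3 treated libraries lay below the 3 vehicle libraries. Between these 2 groups 54.5% of all genes had no overlap. RRM2 was closer to the vehicle (173, 176 and 175 CPM; -0.13 ± 0.04, adjusted p = 0.00984) than to the lower dose of the extract. The higher genes included GINS3, PRIM1, PRIM2, POLE2, RFC3, RFC4 and DTL. The lower count was 9 without replicate 2 at 500 µg/mL and 8 without the filter on low counts.

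With Yijin-tang at 500 µg/mL, 3 genes were lower than vehicle (15.2% of all genes), MCM3, MCM6 and UHRF1, and 13 were higher (16.0%). RRM2 (0.51 ± 0.04, adjusted p = 8.75e-09), POLE2 (15.5, 15.5 and 17.7 against 11.3, 12.1 and 11.6 CPM; 0.48 ± 0.08, adjusted p = 0.000202) and RFC4, a clamp loader subunit (58.0 ± 2.17 against 43.0 ± 3.44, SD, n = 3; 0.43 ± 0.07, adjusted p = 0.000122), had the largest differences. Of these 16 calls, 10 were kept whichever library was left out. MCM6 was lost in 5 of the 6 such fits, all but that without Yijin-tang replicate 2, and without the filter on low counts (adjusted p = 0.138), and ORC6, RFC2, RFC3, RFC5 and RRM1 were each lost in 1 to 4 of them. With Okbyeongpung-san at 500 µg/mL, 19 genes were lower (11.4%) and 0 higher (13.3%), with 27 and 0 at an unadjusted p under 0.05 by edgeR and 20 and 0 by DESeq2. Over all genes, 6256 of 16643 passed that unadjusted edgeR cut, in either direction. TYMS (-0.61 ± 0.07, adjusted p = 0.000467), TK1 (36.0 and 41.8 against 63.7, 58.1 and 57.2 CPM; -0.60 ± 0.11, adjusted p = 0.00435) and UHRF1 (-0.57 ± 0.07, adjusted p = 0.000424) led. No treated library of these 3 genes reached the vehicle range, and 53.2% of all genes had no overlap between these 2 groups. Of the 19 calls, 13 were kept whichever library was left out, and CDC6, CLSPN, DTL, MCM7, POLA1 and RFC2 were each lost in 1 to 4 of the 5 fits. With the replicate block CDC6 (adjusted p = 0.0529), MCM7 (adjusted p = 0.0662) and RFC2 (adjusted p = 0.0933) missed the threshold.

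At 20 µg/mL some genes differed from the vehicle. For Soshiho-tang and Yijin-tang their numbers lay near or below the shares over all genes. With Soshiho-tang 1 gene, CDT1, was lower (10.5% of all genes) and 5 were higher (11.3%): RRM2 (221, 226 and 225 CPM; 0.36 ± 0.04, adjusted p = 4.14e-06), RFC3 (0.34 ± 0.06, adjusted p = 0.000837), RFC4 (0.30 ± 0.07, adjusted p = 0.00566), PRIM1 and CDC45. With Yijin-tang 2 were lower (9.2%), MCM3 and UHRF1, and 4 higher (10.6%): RRM2 (0.33 ± 0.04, adjusted p = 9.64e-06), POLE2 (0.27 ± 0.09, adjusted p = 0.0305), RFC3 (0.27 ± 0.06, adjusted p = 0.00507) and RFC4. With Okbyeongpung-san 1 gene was lower (1.06%) and 0 higher (1.18%), with 9 and 3 at an unadjusted p under 0.05 by edgeR and 1 and 0 by DESeq2. That gene was E2F1, at 32.3 CPM in both libraries against 42.7, 41.1 and 40.6 in the vehicle (-0.34 ± 0.07, adjusted p = 0.0424). It was lost with the replicate block (adjusted p = 0.0966) and whichever of the 5 libraries was left out. In this comparison 3607 of 16643 genes passed the unadjusted edgeR cut, in either direction. With Soshiho-tang, RRM2, RFC3 and RFC4 were kept whichever library was left out. CDT1 was lost without any 1 of 5 libraries, all but vehicle replicate 3, and 3 genes in place of 5 were higher without vehicle replicate 2 or 3 or Soshiho-tang replicate 1 or 3. With Yijin-tang, RRM2 and RFC3 were kept. The lower count was 0 without vehicle replicate 1 or Yijin-tang replicate 1 and 1 without vehicle replicate 3 (MCM3). Without Yijin-tang replicate 2 both were lost and POLE was called instead. The higher count was 2 without vehicle replicate 3. FEN1, GINS2, MCM5 and POLD1, the catalytic subunit of polymerase delta, were called in none of the 17 comparisons. MCM5 stood at 83.2, 82.0 and 84.4 CPM at 500 µg/mL of Soshiho-tang and 77.9, 82.4 and 76.8 at 20, and at 58.3 and 74.9 at 500 of Okbyeongpung-san and 76.6 and 80.1 at 20.

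Soyo-san, with 1 library per dose, allows no test. Its libraries are of batch D and the vehicle libraries of batch E, so extract and batch cannot be told apart. Against the vehicle mean, the median log2 ratio of the 40 genes was 0.00 at 500 µg/mL, -0.02 at 100 and -0.03 at 20. Over 13842 genes with a mean of at least 1 CPM it was 0.01, 0.00 and 0.01. At 500 µg/mL 13 genes lay below the range of the 3 vehicle libraries, 12 inside and 15 above, with ratios from -0.23 for CCNE2 (18.3 CPM) to 0.36 for POLE2 (15.2 CPM). The share of all genes outside that range was not counted, so these counts are a description only. RRM2 stood at 200, 214 and 214 CPM at 500, 100 and 20 µg/mL, above the vehicle at each dose. TYMS stood at 73.0, 72.3 and 76.6 and UHRF1 at 68.1, 72.4 and 73.7, below the vehicle range.

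Other genes of the pathway were read from 2 further lists, which were also chosen with earlier results of these data known. Of 52 other replication and nucleotide genes, 8 were lower and 6 higher at 500 against 20 µg/mL of Soshiho-tang (median 0.02), 0 lower and 5 higher with Yijin-tang (median 0.10) and 9 lower and 2 higher with Okbyeongpung-san (median -0.15). Over all genes the shares lower and higher were 14.2% and 14.6%, 2.94% and 2.7%, and 5.1% and 5.21% for the 3 extracts in that order, so the Soshiho-tang counts of this list lie near the background. TOP2A, the topoisomerase of S and G2 phase, was lower with Soshiho-tang (-0.50 ± 0.05, adjusted p = 2.14e-08) and Okbyeongpung-san (-0.34 ± 0.09, adjusted p = 0.0458) and higher with Yijin-tang (0.24 ± 0.04, adjusted p = 0.00235). TICRR, which activates origins, was lower with Soshiho-tang (-0.39 ± 0.10, adjusted p = 0.00408), and TIPIN, a fork protection factor (0.29 ± 0.09, adjusted p = 0.0187), and CHTF18, of an alternative clamp loader (0.20 ± 0.07, adjusted p = 0.0397), were higher. DONSON (0.28 ± 0.06), WDHD1 (0.27 ± 0.07) and ORC2 (0.24 ± 0.07) were higher with Yijin-tang. With Okbyeongpung-san, POLE4, a small subunit of polymerase epsilon, was higher (0.47 ± 0.11, adjusted p = 0.0198) while POLE and POLE2 were lower, and SLC29A1, a nucleoside transporter (-0.43 ± 0.12), and SAMHD1, a dNTP hydrolase (-0.39 ± 0.10), were lower.

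Of 24 tested genes that control G1, 8 were lower and 4 higher with Soshiho-tang, 0 lower and 2 higher with Yijin-tang and 4 lower and 4 higher with Okbyeongpung-san, against the same shares over all genes. With Soshiho-tang, CDKN2C, the inhibitor p18 (-0.84 ± 0.06, adjusted p = 1.67e-10), E2F2 (-0.78 ± 0.11, adjusted p = 1.06e-05) and the repressor E2F8 (-0.74 ± 0.11, adjusted p = 2.4e-05) were lower, and the repressor E2F7 was higher (0.81 ± 0.06, adjusted p = 6.62e-10). CDKN1A, the inhibitor p21, was higher with Okbyeongpung-san (0.89 ± 0.14, adjusted p = 0.0038) and with Soshiho-tang (0.59 ± 0.08, adjusted p = 3.9e-06). E2F2 (-0.77 ± 0.17), E2F8 (-0.76 ± 0.11) and CDKN2C (-0.61 ± 0.09) were lower with Okbyeongpung-san as well. RBL2 (0.17 ± 0.04) and CDK2, the kinase that cyclin E activates (0.16 ± 0.04), were the 2 genes higher with Yijin-tang.

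Split by the promoter letters shown above, 7 of the 15 genes with an E2F-type string were lower and 1 higher at 500 against 20 µg/mL of Soshiho-tang (median -0.14), against 5 lower and 2 higher of the 21 without (median -0.04). With Okbyeongpung-san 4 of 15 were lower (median -0.26) against 3 of 21 (median -0.20), and with Yijin-tang 2 of 15 were higher against 3 of 21. POLA1, PCNA, POLE, TYMS and UHRF1 have the letters and were lower with Soshiho-tang, DTL has them and was higher, and MCM6 has them in overlapping pairs and was not called. MCM10 and RRM1 do not have them in this window and were lower. Over all genes, 14.2% were lower and 14.6% higher with Soshiho-tang, 5.1% and 5.21% with Okbyeongpung-san and 2.94% and 2.7% with Yijin-tang. The split is a description, with no test.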

How the data were processed

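Total RNA was sequenced as 100-base pairs from a strand-keeping kit, per the labels' protocols. Reads were handled with FastQC 0.11.9, Trim Galore 0.6.5, STAR 2.7.3a and RSEM 1.3.3 on hg38/GRCh38, per the submitters' processing notes. The authors deposited expected counts per gene, of which 9.24 to 10.73% per library were not whole. They were rounded here, and 30 blank columns were ignored. The annotation and strand setting of the counting are not given in the sources used here, and symbols were matched through GENCODE v29. edgeR 4.0.16 (limma 3.58.1, R 4.3.3) with TMM scaling, filterByExpr and the quasi-likelihood test gave all p-values, with Benjamini-Hochberg adjustment over all genes tested. Soshiho-tang, Yijin-tang and vehicle (21 libraries) shared 1 fit, Okbyeongpung-san and vehicle (9) another, and the contrast of Okbyeongpung-san with Soshiho-tang used 27. Soyo-san was compared as log2(CPM + 1) without a test.

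Alternatives were DESeq2 1.42.0, its size factors, no filter on low counts, only the groups compared, a replicate block, 27 libraries in 1 fit and leaving out each library. The scripts were tested on simulated data. The members and gene lists were chosen with earlier results of these data known. Genes with values in every sample were, per role, the one with the highest level per kb and the one with the largest change at 500 against 20 µg/mL of Soshiho-tang, and then the 3 largest calls of each comparison and up to 4 calls of each other list, of which 1 is not reported here. Others shown beyond this rule, such as MCM4, GINS4, PRIM2 and TOP2A with Okbyeongpung-san, were chosen after their values were seen. The titles mark Okbyeongpung-san replicate 2 as batch E and replicate 3 as batch D, so these numbers pair its samples. Same-numbered libraries of this extract deviated together (r = 0.24 at 500 and 20 µg/mL, 0.63 at 100 and 20). The main fits hold group means only and leave this pairing out, and the replicate block is an alternative. All other tested libraries are of batch E.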

Additional observations from a re-analysis of the deposited data

Results flagged for a closer look

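For 14 genes the change from 20 to 500 µg/mL differed between Soshiho-tang and Yijin-tang in the test of the difference itself, with a lower value for Soshiho-tang in each. Over all genes 6.99% were lower and 6.63% higher. Of the 14 calls, 5 (CLSPN, GINS1, MCM4, POLA1 and POLA2) were lost in at least 1 fit that left out a library. On the log2 scale the differences in nucleotide supply were -0.66 for RRM2, -0.40 for TYMS, -0.37 for TK1 and -0.24 for RRM1. In the helicase and its activators they were -0.45 for MCM10, -0.36 for GINS1, -0.33 for CDC45, -0.27 for MCM3 and -0.17 for MCM4. They were -0.61 for CCNE2, -0.37 for UHRF1, -0.30 for CLSPN, -0.26 for POLA2 and -0.25 for POLA1.

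For 4 genes the same change differed between Okbyeongpung-san and Soshiho-tang. The difference, Okbyeongpung-san minus Soshiho-tang, was -0.71 for POLE2, -0.36 for DTL, -0.27 for MCM4 and 0.38 for CCNE2. Over all genes 3.17% were lower and 4.25% higher. Of the 4 calls, 3 (all but DTL) were lost in at least 1 fit that left out a library. All 4 were lost when only the groups compared were fitted. The libraries of these 2 extracts come from different library sets, and a part of that in the difference was not tested.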

How the results depend on the processing

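Of 134 calls on the 40 genes over the 17 comparisons, 131 were kept with DESeq2, 133 with its size factors, 124 with the replicate block and 107 each without the filter on low counts and with only the groups compared. With 27 libraries in 1 fit 116 were kept and 14 lost, the contrast of Okbyeongpung-san with Soshiho-tang being fitted so throughout; 0 values changed sign among those called. Of 309 counts, 270 stayed within 1.5 times, and the other 39 follow; the cause was not tested. Genes of the 40 are "members" here, and counts of all genes are marked so. Without the filter, at 500 against 20 µg/mL, members higher were 1 with Soshiho-tang and 8 with Yijin-tang, and all genes were 2604 with Okbyeongpung-san; at 100 against 20 all genes were 101, 67 and 44 for Soshiho-tang, Yijin-tang and Okbyeongpung-san; between Soshiho-tang and Yijin-tang all genes were 396 at 100 and 252 at 20; in the contrast of Okbyeongpung-san with Soshiho-tang 0 members were higher; against vehicle, members lower were 8 with Soshiho-tang at 500, 0 with Yijin-tang at 20 and 2 (all genes 1442) with Okbyeongpung-san at 20. With only the groups compared, Yijin-tang at 500 against 20 gave 2 members higher and 308 genes, Okbyeongpung-san 1 member lower and 523 genes; 100 against 20 gave 3 genes for Soshiho-tang and 0 for Yijin-tang; the 2 extracts differed in 46 genes at 100 and 6 at 20; the contrast of Okbyeongpung-san with Soshiho-tang gave 0 members lower, 0 higher and 575 genes; against vehicle, Soshiho-tang at 20 gave 0 members lower and Okbyeongpung-san at 20 gave 797 genes. With 27 libraries, Okbyeongpung-san at 500 against 20 gave 18 members lower and 3082 genes, Soshiho-tang at 100 against 20 gave 7 genes, and against vehicle Yijin-tang at 20 gave 2 members higher and Okbyeongpung-san at 20 gave 8 lower, 3 higher and 2162 genes. DESeq2 gave 9 genes for Yijin-tang at 100 against 20, 56 between the extracts at 20, 2 members higher in the contrast of Okbyeongpung-san with Soshiho-tang and 708 genes for Okbyeongpung-san at 20 against vehicle. The replicate block gave 0 members lower and 40 genes in that last comparison and moved no other count by over 1.5 times. Deviations of same-numbered Soshiho-tang or Yijin-tang libraries had r from -0.34 to 0.27. Their library names carry the replicate number as the middle field, and the labels do not say what that field stands for.

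Leaving out 1 library at a time gave these ranges. At 500 against 20 µg/mL, all genes ran from 505 to 1057 with Yijin-tang, and with Okbyeongpung-san members lower ran from 4 to 8 and all genes from 630 to 1966. At 100 against 20, all genes ran from 3 to 7, 0 to 1 and 0 to 1 for Soshiho-tang, Yijin-tang and Okbyeongpung-san. Between Soshiho-tang and Yijin-tang, members lower ran from 9 to 17 at 500, and all genes from 61 to 124 at 100 and 8 to 38 at 20; in their dose responses members lower ran from 9 to 14. In the contrast of Okbyeongpung-san with Soshiho-tang, members lower ran from 2 to 6, higher from 0 to 1 and all genes from 801 to 1786. Against vehicle, members lower ran from 9 to 13 with Soshiho-tang at 500 and all genes from 2228 to 3869 with Okbyeongpung-san at 500. At 20, members lower and higher ran from 0 to 1 and 3 to 4 with Soshiho-tang and from 0 to 2 and 2 to 5 with Yijin-tang (all genes 2081 to 2822), and with Okbyeongpung-san members lower were 0 throughout and all genes 9 to 26.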
